A study of Neurospora crassa with 24 samples.

Results

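The mRNAs of 5 Neurospora crassa genes that encode enzymes of the carotenoid pathway were followed: al-1 (NCU00552), al-2 (NCU00585), al-3 (NCU01427), cao-2 (NCU11424) and ylo-1 (NCU04013). The rule lists them by gene identifier and uses no measured value, although earlier results of these data were known when it was set, and they are 5 of the 10561 genes in the table of read counts. All 5 passed the filter on low counts, as did 9412 genes in all. The libraries were made from polyA RNA of protoperithecial tissue, the immature female organs with the mycelium that bears them, grown for 7 days at 22 °C on nitrogen-poor synthetic crossing medium under light or in darkness, and it was harvested on the day before fertilization would take place. There were 4 strains, each with 3 light and 3 dark libraries, 24 in all: the wild type (WT), a ∆ve-1 deletion mutant without the velvet protein VE-1, a strain labelled ∆wc-1, which should lack the blue-light photoreceptor WC-1, and a strain labelled ∆ve-1 ∆wc-1, which should lack both. The sample titles call them velvet, white-collar and double mutants, and the study describes them as deletion strains. The study states that RNA experiments used at least 3 independent biological replicates, and also that the tissue of biological replicates was pooled before RNA extraction. How the 3 libraries of a strain and condition relate to independent cultures is thus not clear. The differences among them may be technical, and p-values measure only that spread.

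Carotenoids give N. crassa its orange color, in the mycelium after illumination and in the conidia (asexual spores). AL-3 makes geranylgeranyl diphosphate from the products of the mevalonate pathway. AL-2 joins geranylgeranyl diphosphate molecules into the colorless phytoene and later closes the end ring, AL-1 introduces the double bonds that make the pigments colored, CAO-2 cleaves the carotene torulene, and YLO-1 is the aldehyde dehydrogenase that yields the end product neurosporaxanthin. The white-collar complex of WC-1 and WC-2 senses blue light and activates the transcription of light-induced genes, the al genes among them, and VVD, another flavin photoreceptor, dampens its activity.

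The libraries held between 30246878 and 42697941 counts, and the 5 genes took between 0.0191% and 0.200% of them. The unit of level is CPM, a count scaled by library size. In the libraries of both strains labelled ∆ve-1, ve-1 itself was at 1.60 to 8.39 CPM, against 176 to 291 CPM in the WT. The deletion of wc-1 was not borne out by its own counts, which in the dark were at 17.3 to 27.8 CPM in the WT, at 54.8 to 69.2 CPM in the strain labelled ∆wc-1 and at 36.1 to 129 CPM in the strain labelled ∆ve-1 ∆wc-1. In the light they were at 7.12 to 42.1, 12.7 to 32.1 and 15.5 to 113 CPM in the same order, with overlap. These strains are therefore called by their labels throughout. Among the libraries labelled ∆ve-1 ∆wc-1, dark library 1 was most like light library 3 (Spearman's rho 0.992 over genes), dark library 2 like light library 2 (0.964) and dark library 3 like light library 1 (0.963), so that each library of that strain was closest to a library of the other condition. In the libraries of the WT in the light, the 10 most abundant genes took 18.7% to 27.1% of all counts, against 6.41% to 9.31% in the dark. Levels were therefore scaled with TMM factors (trimmed mean of M values, which match the bulk of the genes between libraries). With library totals alone, the median log2 ratio of light over dark in the WT would be -0.78 over all genes tested, against -0.054 with TMM factors. Counts were even more often than chance gives: over the genes with 100 to 1000 counts (100 itself left out), the share of even counts was 59.8% to 63.7% in the WT in the dark and 80.3% to 90.2% in the WT in the light, where chance gives 50%. In the dark libraries of the ∆ve-1 mutant it was 73.5% to 82.6%, and the 10 most abundant genes took 16.3% to 21.4% of counts there. Light library 1 of the strain labelled ∆wc-1 had 93.3% even counts. Library 2 of the strain labelled ∆ve-1 ∆wc-1 had 81.6% in the dark and 81.3% in the light, with 23.9% and 21.3% of counts in the 10 most abundant genes.

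The 5 genes are spread over 4 chromosomes of the NC12 assembly. al-1 lies on chromosome I at 8029857 to 8032395, and al-2 on the same chromosome at 7920916 to 7924255. al-3 is on chromosome V at 4030155 to 4032913 and ylo-1 on chromosome VI at 2441355 to 2444495. cao-2 is close to the end of chromosome VII, at 2483 to 4931. The annotated gene model of al-3 overlaps that of its neighbor NCU01426 at one end, and reads from the overlap cannot be assigned to either gene unless they lie on opposite strands. Counting took strand into account.

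In the WT, light increased the mRNA accumulation of the 3 al genes, by 46.3-fold for al-1, 10.2-fold for al-2 and 5.90-fold for al-3, whereas the 2 genes for the late steps moved little. A gene was called differentially expressed (DEG) when the edgeR quasi-likelihood test gave a Benjamini-Hochberg adjusted p below 0.05 over the 9412 genes and the log2 fold change (log2FC) was above 1 or below -1. Thus light made DEGs of 3 of the 5 genes in the WT, all 3 higher in the light, where 11.4% of all genes tested were DEGs and 5.13% were DEGs with more mRNA in the light.

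The mRNA for al-1, the phytoene desaturase gene, was at 23.5, 23.6 and 14.7 CPM in the WT in the dark and at 1321, 643 and 896 CPM in the light. The lowest light library was far above the highest dark library, and the difference (log2FC 5.53 ± 0.94 SE, n = 3 libraries per condition, edgeR adjusted p = 0.0011) ranked 25 from the top of the 9412 genes by log2FC. al-2, the phytoene synthase gene, gave 56.4, 57.7 and 54.2 CPM in the dark and 844, 425 and 444 CPM in the light. Its dark libraries were nearly equal, its light libraries did not overlap them, and the difference (log2FC 3.35 ± 0.43 SE, edgeR adjusted p = 0.00017) ranked 7 of all genes by p-value. The mRNA for al-3, the geranylgeranyl diphosphate synthase gene, was at 85.0, 94.8 and 65.1 CPM in the dark and at 491, 396 and 558 CPM in the light (log2FC 2.56 ± 0.65 SE, edgeR adjusted p = 0.014). The light libraries were again all above the dark libraries. All 3 genes were also called with the share of even counts, or that of the 10 most abundant genes, as a covariate. Both shares were higher in each WT light library than in any WT dark library (80.3% to 90.2% against 59.8% to 63.7%, and 18.7% to 27.1% against 6.41% to 9.31%). The covariate fits thus cannot separate these shares from light in the WT. The call for al-3 was lost without WT dark library 1 (adjusted p = 0.055) or without WT dark library 3 (adjusted p = 0.076).

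The late genes behaved differently. cao-2, which encodes the torulene-cleaving oxygenase, was at 74.8, 90.4 and 60.2 CPM in the WT in the dark and at 118, 129 and 167 CPM in the light. The light values were all above the dark values, but the difference (log2FC 0.88 ± 0.36 SE, edgeR adjusted p = 0.11) did not pass the test. ylo-1, the gene for the aldehyde dehydrogenase of the last step, gave 173, 148 and 217 CPM in the dark and 99.4, 87.0 and 106 CPM in the light. It was lower in each light library than in any dark library (log2FC -0.88 ± 0.26 SE, edgeR adjusted p = 0.034) and passed the test on p but not the limit on fold. Light and dark libraries of the WT did not overlap for any of the 5 genes, which was also true of 40.9% of all genes tested.

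Markers of conidia were also higher in the WT in the light. Of 7 genes chosen as conidial markers, 5 were DEGs with more mRNA in the light, namely eas, con-6, con-10, con-13 and fl. In all, 6 of the 7 had a positive log2FC, and none was a DEG with less mRNA. The mRNA for eas, which encodes the hydrophobin of the conidial coat, was at 144 to 1549.6 CPM in the dark and at 60746 to 132521 CPM in the light. The summed level of the 7 genes was 15949.8 to 24082 CPM in the dark and 90495 to 148557 CPM in the light. In the dark most of that sum thus came from other genes of the list than eas. None of the 7 was at 0 in the light. In tissue as a whole, a larger share of one kind of cell and more RNA per cell cannot be told apart, and the part that conidial material has in the rise of the al genes was not tested.

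**Figure D1:**
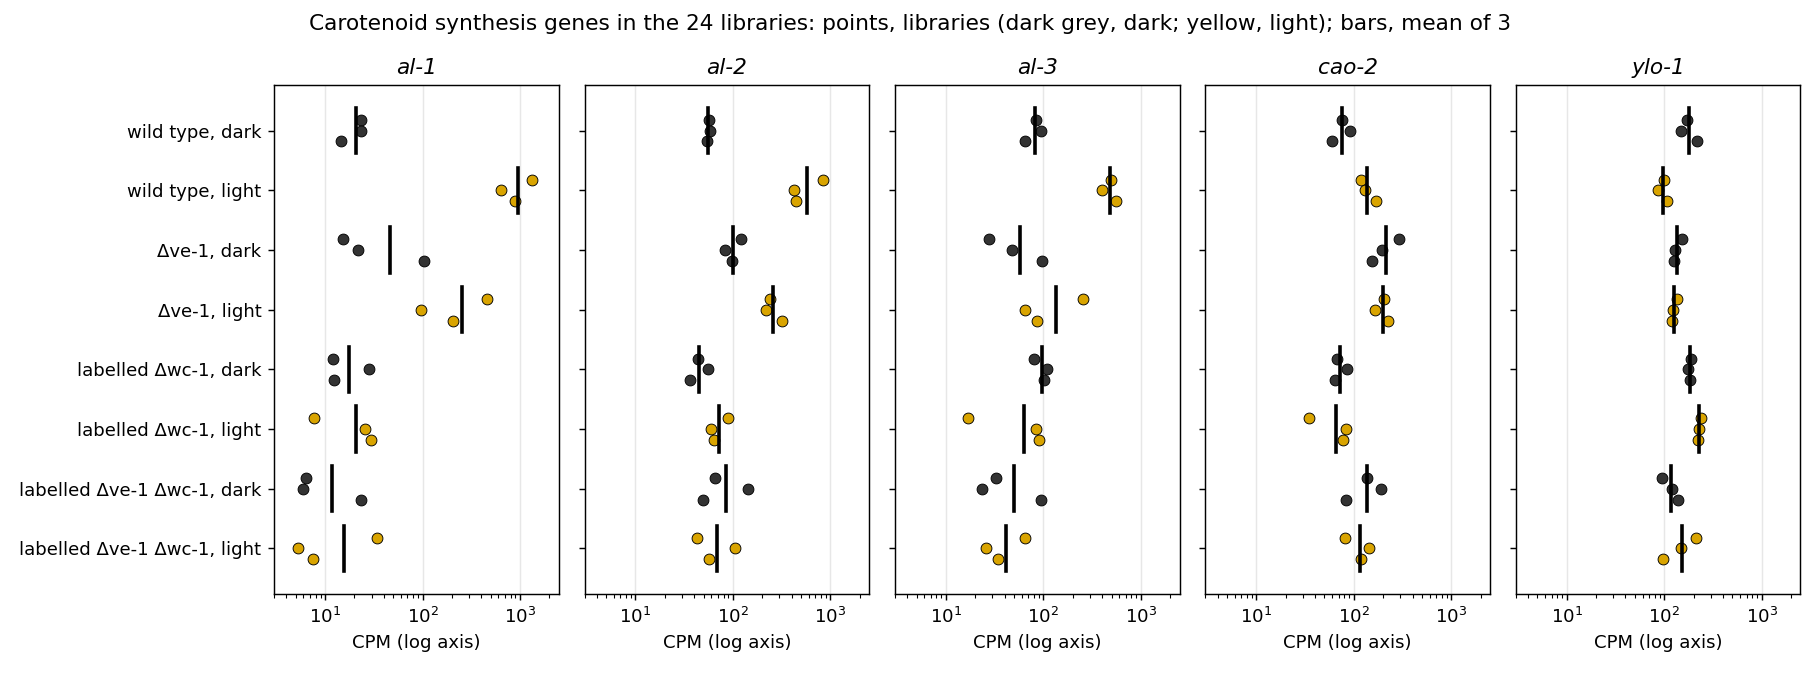
Levels of the 5 carotenoid genes in the 24 libraries, as CPM scaled with TMM factors on a log axis. Each point is one library (dark grey, dark; yellow, light), and the vertical bars are the means of the 3 libraries of a condition. In the WT the al-1 points lie at 14.7 to 23.6 CPM in the dark and at 643 to 1321 CPM in the light, whereas light and dark points overlap for al-1 in the other strains.

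In the ∆ve-1 mutant, the al mRNAs were higher on average in the light but spread widely between libraries. Between light and dark 0 of the 5 genes were DEGs by edgeR, where 0.106% of all genes tested were, and 2 of the 5 had an unadjusted p below 0.05, as had 5.81% of all genes. al-1 was at 15.3, 21.9 and 104 CPM in the dark and at 459.9, 95.6 and 204 CPM in the light (log2FC 2.43 ± 0.82 SE, edgeR adjusted p = 0.59). Dark library 3 stood above the other dark libraries and overlapped the light libraries. That library was also the highest of its condition for al-3. Without it, the log2FC of al-1 was 3.77 (edgeR adjusted p = 0.19).

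al-2 gave 119.9, 82.5 and 97.4 CPM in the dark libraries of the ∆ve-1 mutant and 239.8, 218 and 318 CPM in the light (log2FC 1.37 ± 0.40 SE, edgeR adjusted p = 0.36). It was the only one of the 5 genes with no overlap between light and dark in this strain, as for 15.9% of all genes tested. For al-3, the dark libraries gave 27.7, 47.8 and 97.8 CPM and the light libraries 258, 64.8 and 85.6 CPM, so that a single light library was above the others (log2FC 1.24 ± 0.62 SE, edgeR adjusted p = 0.88). cao-2 was at 291, 195 and 153 CPM in the dark and at 202, 164 and 224 CPM in the light, and ylo-1 at 153, 129 and 126 CPM in the dark and at 136, 122 and 119 CPM in the light. Both overlapped between light and dark, with a log2FC of -0.11 each. Other tools gave another count for this comparison: DESeq2 on only these libraries (1.66% of all genes called) and limma-voom (3.56% called) each called 2 of the 5 genes, al-1 and al-2, and DESeq2 on all 24 libraries (0.624% called) called 0.

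In the strain labelled ∆wc-1, 0 of the 5 genes were DEGs between light and dark (0.0% of all genes tested). None of the 5 had an unadjusted p below 0.05, and DESeq2 and limma-voom also called 0 of them, although 14.1% of all genes had an unadjusted p below 0.05. al-1 was at 12.1, 28.2 and 12.4 CPM in the dark and at 7.78, 25.6 and 29.5 CPM in the light (log2FC 0.26 ± 0.78 SE, edgeR adjusted p = 0.87). al-3 gave 80.9, 109 and 101 CPM in the dark and 16.8, 84.7 and 90.5 CPM in the light, where library 1 was low (log2FC -0.60 ± 0.61 SE, edgeR adjusted p = 0.64). Light library 1 was also the lowest of its condition for al-1 and cao-2, it held the fewest counts of the 24 libraries, and its 10 most abundant genes took 26.7% of its counts. For al-2 the dark libraries were at 43.4, 55.8 and 36.3 CPM and the light libraries at 89.0, 60.2 and 64.6 CPM, all light values being above the dark values, with a log2FC of 0.66 ± 0.39 SE that did not pass the test (edgeR adjusted p = 0.45). Without light library 1 this log2FC was 0.47. cao-2 was at 67.4, 84.3 and 64.6 CPM in the dark and at 34.6, 82.6 and 77.8 CPM in the light, with overlap between the conditions. ylo-1 was at 186, 175 and 185 CPM in the dark and at 239, 225 and 220.3 CPM in the light, without overlap (log2FC 0.32 ± 0.26 SE, edgeR adjusted p = 0.57), where 29.7% of all genes tested did not overlap.

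The strain labelled ∆ve-1 ∆wc-1 likewise had 0 of the 5 genes as DEGs between light and dark (0.0% of all genes tested), with none at an unadjusted p below 0.05, against 1.33% of all genes, and none called by DESeq2 or limma-voom. Light and dark libraries overlapped for all 5 (1.86% of all genes did not overlap). al-1 gave 6.44, 5.90 and 23.2 CPM in the dark and 33.9, 5.28 and 7.61 CPM in the light. The high values belonged to dark library 3 and light library 1, which were also alike over all genes. al-2 gave 64.9, 143 and 49.3 CPM in the dark and 43.0, 104 and 56.2 CPM in the light, and here library 2 was the highest in both conditions. For al-3 the values were 32.6, 23.7 and 94.6 CPM in the dark and 64.2, 25.8 and 34.1 CPM in the light, in the same order of libraries as al-1. cao-2 was at 135, 191 and 82.4 CPM in the dark and at 80.3, 145 and 119 CPM in the light, and ylo-1 at 95.1, 119 and 139 CPM in the dark and at 211, 149 and 96.3 CPM in the light. The 5 genes thus followed the likeness of libraries across light and dark described above, and a light effect in this strain is measured against that spread.

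**Figure D2:**
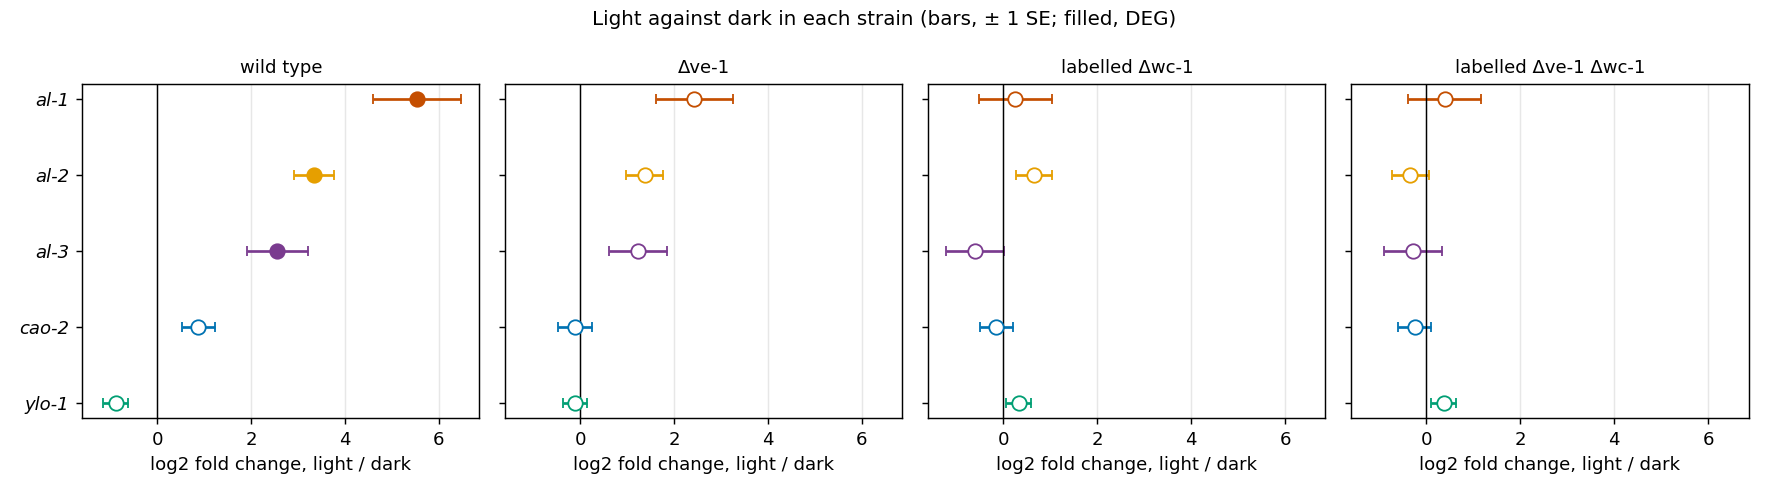
Log2 fold change of light over dark for the 5 genes in each strain, from the edgeR fit over all 24 libraries. Points are estimates, bars are ± 1 SE, and filled points are DEGs. Only al-1 (5.53), al-2 (3.35) and al-3 (2.56) in the WT are filled.

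Whether the light effect differed between strains was tested as the difference of the log2 fold changes. Relative to the WT, the light effect on al-1 was lower in the strain labelled ∆wc-1 by a log2 difference of -5.28 ± 1.17 SE (edgeR adjusted p = 0.019), and that on al-2 by -2.69 ± 0.56 SE (edgeR adjusted p = 0.013), which made 2 of the 5 genes DEGs in this test where 2.44% of all genes were. In the strain labelled ∆ve-1 ∆wc-1 the same 2 genes were called, al-1 with -5.14 ± 1.17 SE (edgeR adjusted p = 0.020) and al-2 with -3.69 ± 0.57 SE (edgeR adjusted p = 0.0018), where 3.08% of all genes were DEGs. Both tests use the same WT libraries. For al-3 the differences were -3.16 (edgeR adjusted p = 0.061) and -2.84 (edgeR adjusted p = 0.082), and for ylo-1 they were 1.21 (0.093) and 1.25 (0.069), none of them past the threshold, although DESeq2 on all libraries called both genes in both tests (5.58% and 7.72% of all genes called). Without dark library 2 of the strain labelled ∆wc-1, neither al-1 (edgeR adjusted p = 0.070) nor al-2 (0.055) was called against that strain, and without WT dark library 3 al-1 was called against neither strain (0.074 and 0.068).

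Between the ∆ve-1 mutant and the WT, 0 of the 5 genes were DEGs in the test of the light effect (0.786% of all genes tested), and 2 had an unadjusted p below 0.05, as had 19.9% of all genes. The difference was -3.10 ± 1.13 SE for al-1 (edgeR adjusted p = 0.15) and -1.98 ± 0.55 SE for al-2 (edgeR adjusted p = 0.076). DESeq2 on all libraries (6.27% of all genes called) called 2 genes, al-1 and al-2, and limma-voom (17.6% called) 3, those 2 and al-3. The light effect of the strain labelled ∆ve-1 ∆wc-1 against that of the ∆ve-1 mutant gave 0 of the 5 genes (0.0425% of all genes), with al-2 at -1.71 ± 0.55 SE and al-1 at -2.04 ± 1.11 SE, and neither DESeq2 on all libraries nor limma-voom called any.

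In the dark, the absence of VE-1 was accompanied by more cao-2 mRNA. cao-2 was at 74.8, 90.4 and 60.2 CPM in the WT and at 291, 195 and 153 CPM in the ∆ve-1 mutant, a 2.84-fold rise (log2FC 1.50 ± 0.36 SE, edgeR adjusted p = 0.0064). All the mutant values were above the WT values, in a comparison where 58.6% of all genes did not overlap. The call held without any single library of the 24 and under all 10 other settings. cao-2 was the only one of the 5 genes to be a DEG, a share near the 23.0% of all genes tested. Of all genes, 11.1% were DEGs with more mRNA in the mutant. By log2FC, cao-2 ranked 1260 from the top of the 9412 genes. Scaled by library totals alone, its log2FC would be 0.70, with a median over all genes of -0.79.

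The other 4 genes did not pass the test in the dark. al-2 was at 82.5 to 119.9 CPM in the ∆ve-1 mutant, above the 54.2 to 57.7 CPM of the WT in each library (58.6% of all genes did not overlap). Its log2FC was 0.83 ± 0.39 SE (edgeR adjusted p = 0.12). al-1, with a log2FC of 1.19 ± 0.79 SE (edgeR adjusted p = 0.27), owed its direction to dark library 3 of the mutant, since the log2FC without that library was -0.15. With the share of the 10 most abundant genes as a covariate, al-1 was called (log2FC 2.48, edgeR adjusted p = 0.042). That share was 16.3% to 21.4% in the mutant and 6.41% to 9.31% in the WT, so this fit cannot separate it from the strain. al-3 (log2FC -0.50) and ylo-1 (log2FC -0.40) overlapped between the strains. Of the 7 conidial markers, 6 were DEGs with more mRNA in the dark libraries of the ∆ve-1 mutant, and their summed level was 28962 to 56236 CPM, against 15949.8 to 24082 CPM in the WT. Their part in the rise of cao-2 was not tested.

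In the dark the strain labelled ∆wc-1 did not differ detectably from the WT in any of the 5 genes. By edgeR 0 of the 5 were DEGs, where 0.0106% of all genes were, none had an unadjusted p below 0.05 (1.72% of all genes had), DESeq2 and limma-voom called 0, and the log2FC lay between -0.31 for al-2 and 0.25 for al-3. In the strain labelled ∆ve-1 ∆wc-1 in the dark, 0 of the 5 genes were DEGs, where 11.3% of all genes were. cao-2 (82.4 to 191 CPM) was higher on average than in the WT but overlapped it, with a log2FC of 0.86 ± 0.36 SE (edgeR adjusted p = 0.12). ylo-1 (95.1 to 139 CPM) was lower in each library than in any WT dark library (38.1% of all genes did not overlap). The log2FC of ylo-1 was -0.61 ± 0.26 SE (edgeR adjusted p = 0.13). Only these 2 of the 5 genes had an unadjusted p below 0.05, as had 27.4% of all genes, and limma-voom (24.2% of all genes called) called 1 gene, al-3. Against the ∆ve-1 mutant in the dark, the same strain had 0 DEGs among the 5 (0.0212% of all genes), with cao-2 at a log2FC of -0.65 ± 0.36 SE.

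In the light, the 3 al mRNAs fell far below the WT level in both strains labelled as lacking WC-1. Against the WT, the strain labelled ∆wc-1 had 4 of the 5 genes as DEGs, where 10.5% of all genes were, 4.77% with less mRNA: al-1 (45.4-fold lower, log2FC -5.50 ± 0.94 SE, edgeR adjusted p = 0.00082), al-2 (8.01-fold lower, log2FC -3.0 ± 0.42 SE, edgeR adjusted p = 0.00021) and al-3 (7.52-fold lower, log2FC -2.91 ± 0.66 SE, edgeR adjusted p = 0.0068) were lower, and ylo-1 was higher. The highest al-1 value in the light in that strain was 29.5 CPM and the lowest in the WT was 643 CPM. ylo-1 was at 239, 225 and 220.3 CPM against 99.4, 87.0 and 106 CPM in the WT (log2FC 1.23 ± 0.27 SE, edgeR adjusted p = 0.0054), and the values did not overlap. cao-2 was at 34.6, 82.6 and 77.8 CPM against 118, 129 and 167 CPM, also without overlap (22.9% of all genes did not overlap), but was not called (log2FC -1.09 ± 0.36 SE, edgeR adjusted p = 0.055). This lay close to the threshold, since cao-2 was called by DESeq2 on all libraries (adjusted p = 0.020), which made all 5 genes DEGs where 14.3% of all genes were, by edgeR with RLE normalization (0.049) or a stricter filter (0.046), and in 3 fits that each left out a library labelled ∆ve-1 ∆wc-1. Without light library 1 of the strain labelled ∆wc-1, al-1, al-2, al-3 and ylo-1 were still DEGs and the log2FC of cao-2 was -0.78. With edgeR on only the libraries compared, where 1.55% of all genes were DEGs, al-3 (adjusted p = 0.086) and ylo-1 (adjusted p = 0.18) were no longer called. The conidial markers moved in the same direction, with 6 of 7 lower in this strain and a summed level of 16532 to 26171 CPM against 90495 to 148557 CPM.

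Against the WT in the light, the strain labelled ∆ve-1 ∆wc-1 had 3 of the 5 genes as DEGs, where 6.53% of all genes were DEGs and 3.5% were lower DEGs, and all 3 were lower: al-1 (61.1-fold lower, log2FC -5.93 ± 0.96 SE, edgeR adjusted p = 0.00088), al-2 (8.41-fold lower, log2FC -3.07 ± 0.42 SE, edgeR adjusted p = 0.00023) and al-3 (11.6-fold lower, log2FC -3.54 ± 0.68 SE, edgeR adjusted p = 0.0030). All 3 calls held without any single library of the 24. cao-2 (log2FC -0.27 ± 0.36 SE) and ylo-1 (log2FC 0.64 ± 0.26 SE, edgeR adjusted p = 0.14) overlapped with the WT, and the direction of cao-2 turned with library totals alone (log2FC 0.11). Of the conidial markers, 2 of 7 were DEGs with less mRNA in this comparison, eas and con-13, and none had a positive log2FC. Their summed level was 17266 to 25705 CPM.

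In the ∆ve-1 mutant in the light, the mean levels of the al genes lay between those of these strains and the WT. By edgeR 0 of the 5 genes were DEGs against the WT, where 4.32% of all genes were, although 3 had an unadjusted p below 0.05 (20.4% of all genes) and 4 did not overlap (24.9% of all genes). al-1 (95.6 to 459.9 CPM, against 643 to 1321 CPM in the WT) had a log2FC of -1.91 ± 0.80 SE (edgeR adjusted p = 0.18), al-2 (218 to 318 CPM) one of -1.14 ± 0.39 SE (edgeR adjusted p = 0.099), and al-3 (64.8 to 258 CPM) one of -1.82 ± 0.63 SE (edgeR adjusted p = 0.10). The call depended on the tool, since DESeq2 on only these libraries (8.55% of all genes called) and limma-voom (14.6% called) each called all 3 al genes and DESeq2 on all libraries (8.23% called) called 2. The conidial markers gave 0 DEGs in this comparison, and their summed level, 43429.7 to 95980.0 CPM, overlapped that of the WT.

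By label, only wc-1 sets the strain labelled ∆ve-1 ∆wc-1 apart from the ∆ve-1 mutant, and in the light 2 of the 5 genes were DEGs between them, where 0.701% of all genes were and 0.287% were lower. al-1 was 16.2-fold lower in the strain labelled as the double mutant (33.9, 5.28 and 7.61 CPM against 459.9, 95.6 and 204 CPM, log2FC -4.02 ± 0.88 SE, edgeR adjusted p = 0.031), and al-2 was 3.81-fold lower (43.0, 104 and 56.2 CPM against 239.8, 218 and 318 CPM, log2FC -1.93 ± 0.40 SE, edgeR adjusted p = 0.020). The strains did not overlap for either gene, as for 10.1% of all genes tested. Both calls were fragile. al-1 was called in 2 of the 6 fits that each left out a library of the conditions compared and al-2 in 3 of the 6, with the adjusted p reaching 0.16 for al-1 and 0.12 for al-2, and edgeR on only these libraries called neither. al-3 was lower in each library (64.2, 25.8 and 34.1 CPM against 258, 64.8 and 85.6 CPM), with a log2FC of -1.72 ± 0.63 SE that did not pass (edgeR adjusted p = 0.36).

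**Figure D3:**
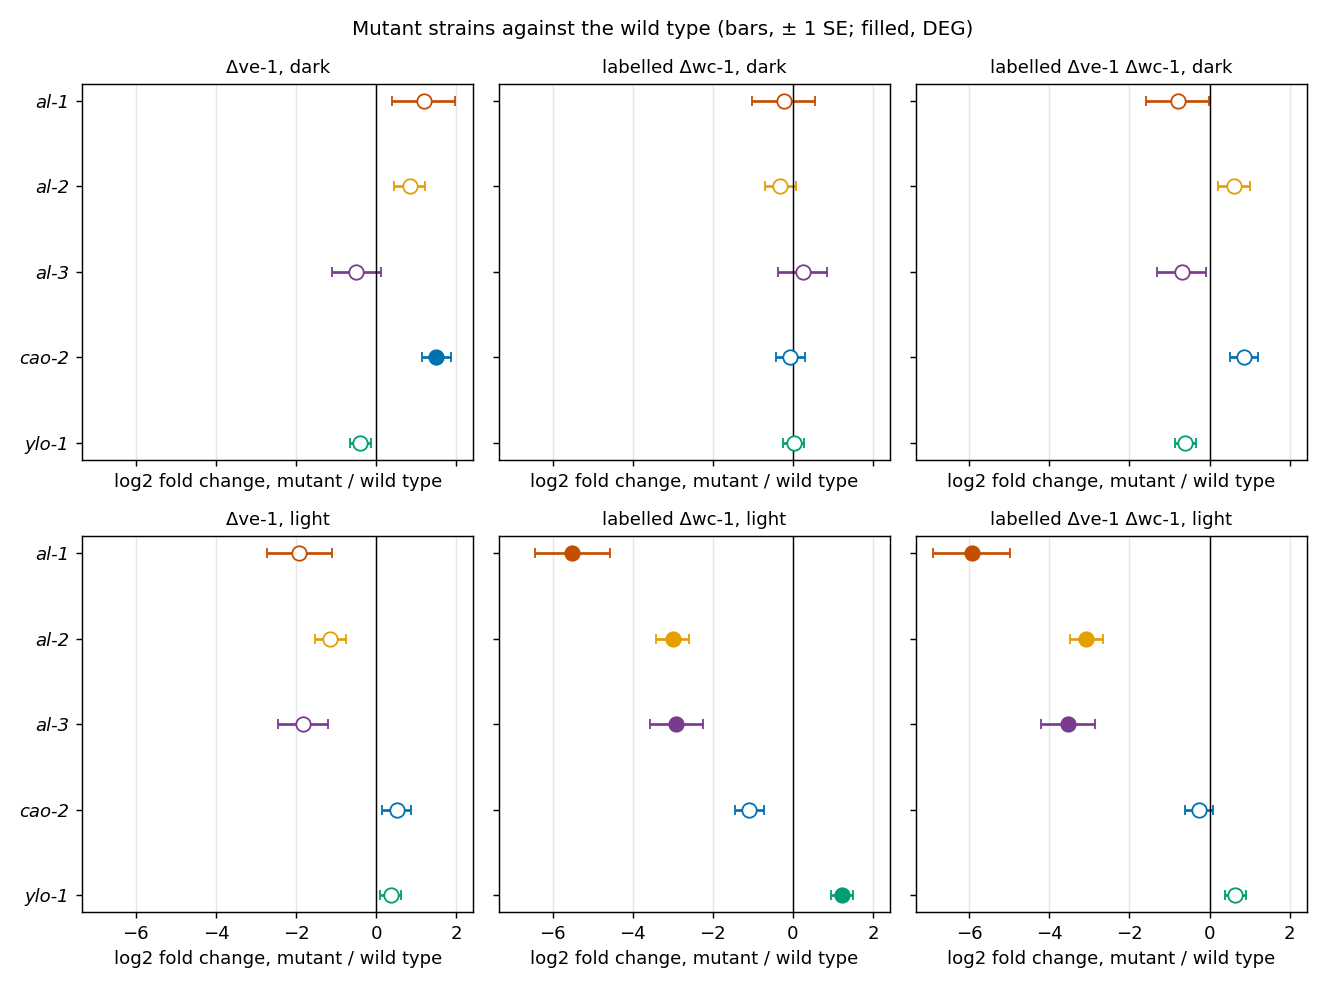
Log2 fold change of each mutant strain over the WT for the 5 genes, in the dark (top) and in the light (bottom). Points are edgeR estimates, bars are ± 1 SE, and filled points are DEGs, and all panels of a row share the 3 WT libraries of that condition. In the dark only cao-2 in the ∆ve-1 mutant is filled (1.50), whereas in the light al-1, al-2 and al-3 are filled in both strains labelled ∆wc-1, at -2.91 to -5.93, and ylo-1 (1.23) in that labelled ∆wc-1 alone.

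Ordered by level, each al gene had its highest mean in the WT in the light: 954 ± 343 CPM for al-1, 571 ± 237 CPM for al-2 and 482 ± 81.4 CPM for al-3 (mean ± SD, n = 3), without overlap with the next condition, which for all 3 was the ∆ve-1 mutant in the light (253 ± 187, 259 ± 52.6 and 136 ± 106 CPM). Below that the conditions ran into each other. al-1 went down from 46.9 ± 49.2 CPM in the dark ∆ve-1 libraries to 11.9 ± 9.85 CPM in the dark libraries labelled ∆ve-1 ∆wc-1, with overlap at each step. For al-2 the ∆ve-1 mutant in the light was also clear of the next condition, the ∆ve-1 mutant in the dark (99.9 ± 18.8 CPM), and the other conditions overlapped down to 45.2 ± 9.89 CPM for the strain labelled ∆wc-1 in darkness. al-3 ran from 96.9 ± 14.4 CPM for the strain labelled ∆wc-1 in darkness to 41.4 ± 20.3 CPM in the light libraries labelled ∆ve-1 ∆wc-1.

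The order was another for the late genes. cao-2 was highest in the ∆ve-1 mutant, at 213 ± 70.7 CPM in the dark and 197 ± 30.4 CPM in the light, followed by the WT in the light (138 ± 25.6 CPM), and lowest in the light libraries labelled ∆wc-1 (65.0 ± 26.4 CPM), with each condition overlapping the next. ylo-1 was highest in the light libraries labelled ∆wc-1 (228 ± 9.94 CPM, clear of the next condition). It was lowest in the WT in the light (97.6 ± 9.85 CPM), where each al gene was highest. Next lowest for ylo-1 were the dark libraries labelled ∆ve-1 ∆wc-1 (118 ± 21.8 CPM), where al-1 was lowest. From its highest to its lowest condition ylo-1 thus covered a far narrower range than al-1.

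Levels of different genes can be compared only per length. CPM was therefore divided by the span of each gene model in kilobases, which includes introns. Per kilobase, the WT in the dark had ylo-1 in first place (57.2 ± 11.1 CPM per kilobase), then cao-2 (30.7 ± 6.17), al-3 (29.6 ± 5.50), al-2 (16.8 ± 0.518) and al-1 (8.11 ± 2.03). In the WT in the light the order was turned around, with al-1 first (376 ± 135 CPM per kilobase), al-3 (175 ± 29.5) and al-2 (171 ± 70.8) close together, cao-2 at 56.4 ± 10.5 and ylo-1 last at 31.1 ± 3.14. As a share of the summed level per kilobase of the 5 genes, al-1 took 4.15% to 6.49% in the WT in the dark and 41.9% to 50.5% in the light, and ylo-1 took 32.6% to 49.6% and 3.07% to 4.58%. Neither range overlapped between light and dark.

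The balance of the 5 mRNAs in the other strains can be read from the same shares. In the dark libraries of the ∆ve-1 mutant, cao-2 held the largest mean share, 43.6% (30.0% to 54.2% over the libraries), and al-1 held 2.74% to 19.6%. In the ∆ve-1 mutant in the light, the mean shares of al-1 (26.2%), cao-2 (24.5%) and al-2 (23.9%) were close to each other. The libraries labelled ∆wc-1 had mean shares of ylo-1 of 40.8% in the dark and 48.8% in the light, and of al-1 of 4.72% and 5.19%. In the strain labelled ∆ve-1 ∆wc-1, cao-2 was in first place in the dark (39.0%) and in the light (35.1%). Summed over the 5 genes, the level was 411 to 415 CPM in the WT in the dark, 1681 to 2874 CPM in the WT in the light, 664 to 1295 CPM in the ∆ve-1 mutant in the light, and between 313 and 607 CPM in every other library.

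**Figure D4:**
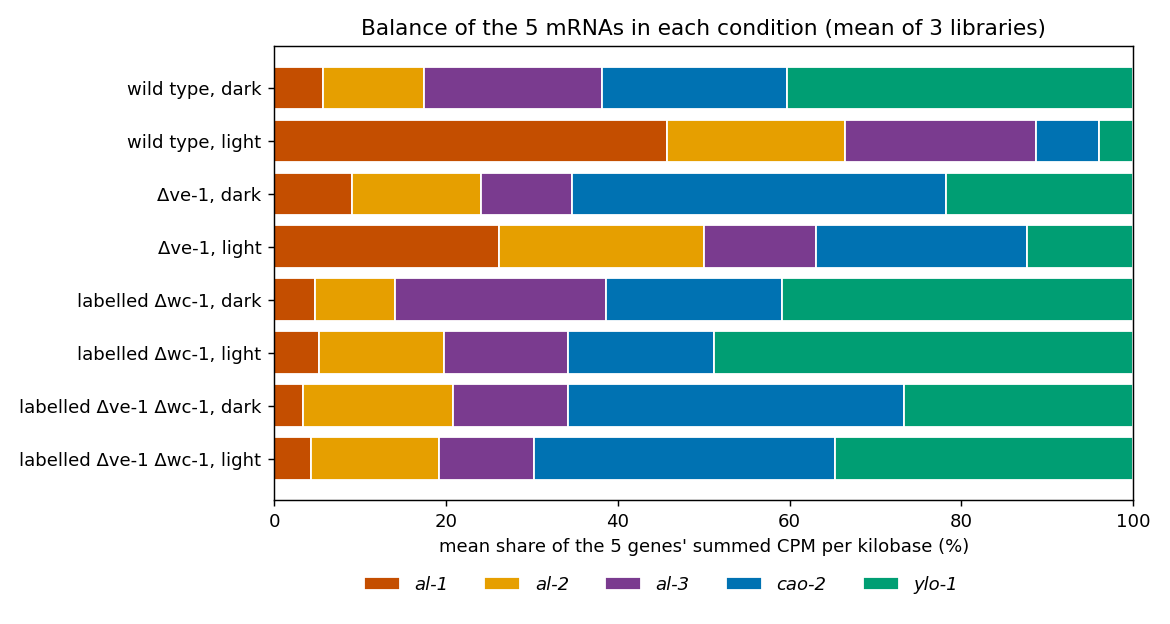
Mean share of each gene in the summed level per kilobase of the 5 carotenoid genes, in percent, for the 8 conditions (mean of 3 libraries, each bar adding to the whole). al-1 takes 5.68% in the WT in the dark and 45.7% in the WT in the light, and ylo-1 40.3% and 3.98%.

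Of 6 genes of the mevalonate pathway, which provides the prenyl diphosphates that AL-3 uses, 0 were DEGs for light in the WT by edgeR (11.4% of all genes). Their median log2FC was -0.17, against -0.07 over all genes tested. The lowest was erg-20, in yeast the gene for farnesyl diphosphate synthase, at 144 to 292 CPM in the dark and 49.0 to 95.1 CPM in the light (log2FC -1.42 ± 0.49 SE, edgeR adjusted p = 0.061). Light gave 0 DEGs among the 6 in the other strains, where 0.106% (∆ve-1) and 0.0% (both labelled strains) of all genes were DEGs. In the dark, 3 of the 6 were DEGs with less mRNA in the ∆ve-1 mutant than in the WT (11.9% of all genes), and the same 3 were lower in the strain labelled ∆ve-1 ∆wc-1 (5.56% of all genes): erg-13 (in yeast HMG-CoA synthase), erg-8 (in yeast phosphomevalonate kinase) and erg-20. The mRNA for erg-13 was at 88.6 to 235 CPM in the WT in the dark, at 20.1 to 25.2 CPM in the ∆ve-1 mutant and at 22.2 to 29.8 CPM in the strain labelled ∆ve-1 ∆wc-1 (log2FC -2.80 ± 0.53 SE and -2.61 ± 0.53 SE, edgeR adjusted p = 0.0013 and 0.0038). Neither mutant strain overlapped the WT, as for 58.6% of all genes in the ∆ve-1 mutant and 38.1% in the strain labelled ∆ve-1 ∆wc-1. In these same dark libraries, cao-2 was a DEG with more mRNA in the ∆ve-1 mutant. In the strain labelled ∆ve-1 ∆wc-1 cao-2 overlapped the WT (82.4 to 191 CPM against 60.2 to 90.4 CPM) and was not called. A link between cao-2 and the mevalonate genes was not tested. In the light, erg-13 alone was a DEG, lower in the strain labelled ∆ve-1 ∆wc-1 (log2FC -1.80 ± 0.51 SE, edgeR adjusted p = 0.038).

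The 3 genes of other branches that use prenyl diphosphates (coq-2, cdc43 and the unnamed NCU07508) gave 0 DEGs in any of the 16 tests by edgeR. The share of all genes called in these tests ran from 0.0% to 23.0%. For light in the WT all 3 had a positive log2FC, with a median of 1.10. cdc43, in yeast the gene for a subunit of a protein prenyltransferase, had the largest light effect in the WT (mean 29.4 CPM in the dark and 191 CPM in the light, log2FC 2.7 ± 1.23 SE, edgeR adjusted p = 0.14).

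Among 9 genes of light sensing, carotenoid regulation and retinal binding, light gave 1 DEG in the WT, a share near the 11.4% of all genes, and 1 in the ∆ve-1 mutant (0.106% of all genes), vvd in both. vvd rose from 8.97 to 16.8 CPM in the dark to 463 to 941 CPM in the light in the WT (log2FC 5.81 ± 0.80 SE, edgeR adjusted p = 0.00028), and from 19.9 to 48.8 CPM to 426 to 1165 CPM in the ∆ve-1 mutant (log2FC 4.21 ± 0.75 SE, edgeR adjusted p = 0.024). In the light it stayed at 2.90 to 7.11 CPM in the strain labelled ∆wc-1 and at 4.24 to 39.5 CPM in the strain labelled ∆ve-1 ∆wc-1. Its light effect differed from that of the WT in both, by -6.18 ± 1.01 SE and -5.92 ± 1.00 SE on the log2 scale (edgeR adjusted p = 0.0032 and 0.0038). nop-1, which encodes an opsin that binds retinal, a carotenoid product, was at 149 to 312 CPM in the WT in the dark and at 3060.5 to 4827 CPM in the dark libraries of the ∆ve-1 mutant (log2FC 4.03 ± 0.83 SE, edgeR adjusted p = 0.0024). It was also a DEG in the dark in the strain labelled ∆ve-1 ∆wc-1 (log2FC 4.07 ± 0.84 SE, edgeR adjusted p = 0.0040), and the unnamed NCU01735 was higher and al-5, known as albino-5, lower in both strains in the dark.

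The genes next to the carotenoid genes were examined because both al-1 and al-2 lie on chromosome I. The 3 nearest genes on each side of the 5 genes, 28 in all, since cao-2 has only 1 gene between it and the chromosome end, held 5 DEGs between light and dark in the WT (11.4% of all genes), 3 higher (5.13%) and 2 lower (6.23%). The 3 higher ones lie on the same side of al-2. NCU00584, whose model lies 11 bp from that of al-2, was at 21.2, 32.2 and 39.6 CPM in the dark (lowest, median and highest) and at 607, 1211 and 2503 CPM in the light, without overlap (log2FC 5.54 ± 0.95 SE, edgeR adjusted p = 0.0011). Thus the immediate neighbor of al-2 had a larger log2FC than al-2 itself. The next gene with a light effect, cry (NCU00582), encodes a cryptochrome, a flavoprotein of the photolyase family, and was at 4.0 to 34.8 CPM in the dark and 124 to 339 CPM in the light (log2FC 3.26 ± 0.79 SE, edgeR adjusted p = 0.011). Its model overlaps that of NCU00583, the third DEG there, so counts of NCU00583 are uncertain.

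Of the neighbors of al-2, NCU00584 was called in the same direction as al-2 in both labelled strains against the WT in the light, whereas cry departed from al-2 in other comparisons. In the dark libraries of the ∆ve-1 mutant, cry was at 121 to 223 CPM, against 4.0 to 34.8 CPM in the WT (log2FC 2.98 ± 0.78 SE, edgeR adjusted p = 0.010), whereas al-2 was not called there. In the light libraries labelled ∆wc-1, NCU00584, cry and al-2 were all DEGs with less mRNA than in the WT. In the light libraries labelled ∆ve-1 ∆wc-1, NCU00584 and al-2 were DEGs and cry was not. In the light libraries of the ∆ve-1 mutant, NCU00584 was lower than in the WT (log2FC -3.03 ± 0.85 SE, edgeR adjusted p = 0.044), and al-2 was not called. Of the other 4 genes, al-1 had 1 DEG and cao-2 had 1 DEG among their neighbors between light and dark in the WT, both lower in the light, and al-3 and ylo-1 had 0. NCU01426, whose model overlaps al-3, was a DEG between the dark libraries of the ∆ve-1 mutant and those of the WT (log2FC 2.19 ± 0.76 SE, edgeR adjusted p = 0.040), a comparison in which al-3 was not.

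**Figure D5:**
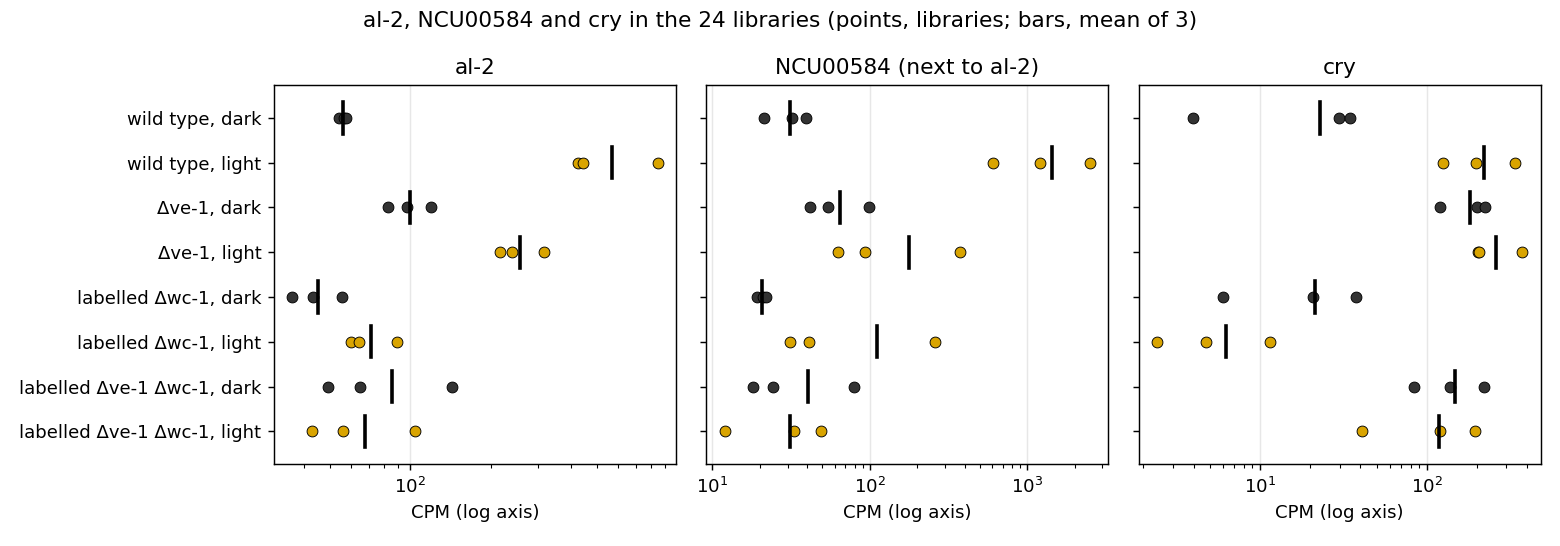
Levels of al-2 and of 2 genes on the same side of it, NCU00584 and cry, in the 24 libraries, as CPM on a log axis whose range differs between panels. Points are libraries (dark grey, dark; yellow, light) and bars are means of 3. NCU00584 goes with al-2 in the WT in the light (607 to 2503 CPM), and cry is also high in the dark ∆ve-1 libraries (121 to 223 CPM). The 2 neighbors were chosen for the plot after their values were seen.

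Over the 24 libraries, the log2(CPM + 1) values of al-1 and al-3 had a Pearson's r of 0.88, those of al-1 and al-2 one of 0.82, and those of al-2 and al-3 one of 0.56. cao-2 had r values of 0.34, 0.55 and 0.092 with al-1, al-2 and al-3, and ylo-1 had negative values with all 4 other genes, from -0.31 with al-3 to -0.67 with cao-2. These are descriptions, since the libraries of a condition are not independent of each other and the WT in the light stands apart from the rest. The genes with the pattern most like each of the 5 were mig-3 for al-1 (r = 0.94), the unnamed NCU14029 for al-2 (0.94), NCU16512 for al-3 (0.95), NCU02612 for cao-2 (0.93) and NCU02560 for ylo-1 (0.91). None of the 5 genes was among the 5 nearest of another. NCU14029 was at a mean of 7.80 CPM in the WT in the dark and 1980 CPM in the WT in the light. In likeness to al-2, its neighbor NCU00584 ranked 6 among all genes (r = 0.90) and vvd ranked 7 (r = 0.90), and cry was far down for al-2 (r = 0.59, rank 776) but ranked 53 for cao-2 (r = 0.87).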

How the data were processed

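Tissue of the 4 strains in light and dark gave 24 libraries, 3 per condition. The authors mapped strand-specific paired reads with STAR 2.7 to NC12 and deposited raw counts per gene from featureCounts (Subread), which were used as deposited. From these counts, edgeR 4.0.16 (R 4.3.3) was run with its filter on low counts and TMM factors, in a quasi-likelihood fit over all 24 libraries with a mean per condition and contrasts between conditions, with Benjamini-Hochberg adjustment. DEGs were genes past an adjusted p of 0.05 with a log2 fold change beyond 1. The SE of an edgeR log2 fold change was derived from the test, as its absolute value divided by the square root of the F statistic. CPM used the same factors. Alternatives were DESeq2 1.42.0 (the study's tool), limma-voom (limma 3.58.1), other filters, scaling and libraries, covariates, a replicate block and leaving out each library. The model was tested on simulated data. Names and positions came from the RefSeq table of NC12 (all 10561 identifiers matched) or the study's annotation. It gave no exon lengths, so gene spans were used, and no product names, so mevalonate kinase, isopentenyl diphosphate isomerase, squalene synthase and coq-1 were not analysed here. Named were the 5 genes, called genes or extremes of the mevalonate, prenyl, regulator, neighbor, conidial and sexual lists, and the nearest patterns. The members, set by identifier, and the lists were chosen with earlier results of these data known.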

Additional observations from a re-analysis of the deposited data

Results flagged for a closer look

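The light effect on 2 of the 5 genes differed between strains in the edgeR test of the difference itself, each time with a smaller log2 fold change of light over dark than in the WT. For al-1 the difference was -5.28 (strain labelled ∆wc-1 minus WT) and -5.14 (strain labelled ∆ve-1 ∆wc-1 minus WT). For al-2 it was -2.69 and -3.69 in the same order. The WT libraries are shared by the 4 tests. Leaving out dark library 2 of the strain labelled ∆wc-1 lost both calls in that strain (edgeR adjusted p = 0.070 for al-1 and 0.055 for al-2), and leaving out WT dark library 3 lost al-1 in both strains (0.074 and 0.068). With 3 libraries per condition, no test for an outlying value within a condition was made.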

How the results depend on the processing

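Counts are of the 5 genes called, with the main edgeR count in brackets. A percentage is the share of all genes called under the same setting. DESeq2 on all libraries called 2 in the ∆ve-1 mutant against the WT in the light (edgeR 0), at 8.23%. It called 2 in the light effect of the ∆ve-1 mutant minus WT (0), at 6.27%. In that of each of the labelled strains (∆wc-1, then ∆ve-1 ∆wc-1) minus WT it called 4 (2), at 5.58% and 7.72%. DESeq2 on only the libraries compared called 2 between light and dark in the ∆ve-1 mutant (0), at 1.66%, and 3 in that mutant against the WT in the light, at 8.55%. It called 2 and 4 in the light effect of that mutant and that of the strain labelled ∆wc-1, at 16.8% and 7.44%. With limma-voom these 4 counts were 2, 3, 3 and 4, at 3.56%, 14.6%, 17.6% and 16.1%. It called 1 in the strain labelled ∆ve-1 ∆wc-1 against the WT in the dark (0), at 24.2%. Against the ∆ve-1 mutant in the light it called 1 (2), at 2.88%. edgeR on only the libraries compared gave 2 in the strain labelled ∆wc-1 against the WT in the light (4), at 1.55%. It gave 0 in the strain labelled ∆ve-1 ∆wc-1 against the ∆ve-1 mutant in the light, at 0.144%. In the light effect of the ∆ve-1 mutant it gave 1, at 9.83%. The even-count covariate gave 1 in the light response of the ∆ve-1 mutant, at 0.212%, and 2 in that mutant against the WT in the light, at 20.8%. It gave 1 in the light effect of ∆ve-1 minus WT, at 0.319%. For labelled ∆wc-1 minus WT it gave 4, at 9.21%, and for labelled ∆ve-1 ∆wc-1 minus ∆ve-1 it gave 1, at 0.085%. The covariate for the 10 most abundant genes gave 1, 2 and 4 in the first 2 and the fourth of these, at 0.244%, 14.2% and 9.45%. It gave 2 in the ∆ve-1 mutant against the WT in the dark, at 16.1%. The main edgeR fit called 4.32% of all genes in the ∆ve-1 mutant against the WT in the light, and 0.786% in its light effect minus WT. The cause of these differences was not tested. Smaller differences were 5 genes (4) in the strain labelled ∆wc-1 against the WT in the light by DESeq2 on all libraries (14.3%), RLE normalization and the stricter filter. Light in the WT gave 4 (3) by adjusted p alone. Both strains labelled ∆ve-1, compared in the light, gave 3 (2) when the share of the 10 most abundant genes was a covariate (1.39%). The labelled ∆wc-1 light effect minus WT gave 3 (2) by edgeR on only the libraries compared (2.08%). That of the strain labelled ∆ve-1 ∆wc-1 gave 3 (2) by DESeq2 on only the libraries compared (6.05%), limma-voom (4.33%) and the covariates for even counts (3.39%) and the 10 most abundant genes (3.78%). By library totals alone, 26 of 40 mean levels stayed within 1 SD.

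Leaving out 1 library at a time gave 2 to 4 genes for light in the WT, 0 to 0 for light in each other strain, 1 to 1 and 0 to 1 for ∆ve-1 against WT in dark and light, 0 to 0 and 4 to 5 for labelled ∆wc-1, 0 to 1 and 3 to 3 for labelled ∆ve-1 ∆wc-1, and 0 to 0 and 0 to 2 for the latter against ∆ve-1. Light effects minus WT gave 0 to 1 (∆ve-1), 0 to 3 (labelled ∆wc-1) and 1 to 4 (labelled ∆ve-1 ∆wc-1), and 0 to 0 against ∆ve-1. Of 17 called results, none changed direction. Replicate numbers did not pair the samples: all 3 same-numbered correlations were above 0.1 in 3 of 28 pairs of conditions. The replicate block changed no call, with 3 genes for light in the WT, 4 and 3 in the 2 labelled strains against the WT in the light, and 1 for ∆ve-1 against WT in the dark. Gene span in place of exon length was not run, since spans alone were used.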

Other observations

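A list of 7 genes of sexual development gave 1 DEG between light and dark in the WT, a share near the 11.4% of all genes. It was T (NCU00776), the tyrosinase gene, with a log2FC of -3.17 ± 0.75 SE (edgeR adjusted p = 0.0099). The other strains gave 0, where 0.106% (∆ve-1) and 0.0% (both labelled strains) of all genes were DEGs. The mRNA for ccg-4, the pheromone precursor gene, was at 48.3 to 428 CPM in the WT in the dark. It was at 2608 to 17765 CPM in the dark libraries of the ∆ve-1 mutant (log2FC 5.00 ± 1.39 SE, edgeR adjusted p = 0.014). In the strain labelled ∆ve-1 ∆wc-1 it was at 1682 to 28408 CPM (log2FC 5.81 ± 1.44 SE, edgeR adjusted p = 0.012). ccg-4 was the only DEG of the 7 in both comparisons, where 23.0% and 11.3% of all genes were DEGs. The list as a whole did not rise with it in the ∆ve-1 mutant, where 2 of the 7 had a positive log2FC (median -0.43). In the strain labelled ∆ve-1 ∆wc-1, 4 of the 7 were positive (median 0.0080). In the light, asm-1, which encodes a regulator of female development, was lower than in the WT in the ∆ve-1 mutant (log2FC -2.33 ± 0.57 SE, edgeR adjusted p = 0.026) and in the strain labelled ∆ve-1 ∆wc-1 (log2FC -2.44 ± 0.58 SE, edgeR adjusted p = 0.015). Light library 1 of the strain labelled ∆wc-1 gave 2047 CPM for asm-1, against 451 and 496 CPM in the other light libraries of that strain. In the strain labelled ∆wc-1 in the light, ccg-4 (log2FC -4.28 ± 1.34 SE, edgeR adjusted p = 0.044) and per-1 (log2FC -2.74 ± 0.68 SE, edgeR adjusted p = 0.013) were lower than in the WT, and T was higher in the strain labelled ∆ve-1 ∆wc-1 (log2FC 2.60 ± 0.74 SE, edgeR adjusted p = 0.037).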
